A study of Rattus norvegicus with 2 samples.

Results

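The genes described here encode the proteasome. They are the 42 genes on the array whose names start with Psma, Psmb, Psmc, Psmd or Psme, after Psmb8 and Psmb9 were set aside, and they were represented by 51 probes among the 33719 gene names and 41012 gene probes of the design. Total RNA from livers of 7-week-old rats was compared after 10 days on a choline-deficient or a control diet, in animals of a strain spelled "Wister" in the labels. Both RNAs were hybridised together to 2 two-colour oligonucleotide arrays with the dyes exchanged, so that Cy5 marked the choline-deficient RNA on array 1 and Cy3 on array 2. The titles speak of 4 choline-deficient rats, but nothing in the labels ties a rat or an extract to an array. The p-values below therefore rest only on differences between the 2 arrays, pooled largely across genes, and those differences may be technical. All ratios are log2 of choline-deficient over control, and each ± is the SD over the 2 arrays.

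The proteasome is the protease complex that degrades proteins tagged with ubiquitin in the cytosol and nucleus. Its 20S core is a barrel of alpha rings, which gate the entrance, and beta rings, which hold the proteolytic sites. The 19S particle caps the barrel, binds ubiquitin chains, removes them and unfolds the substrate with a ring of ATPases, whereas the activators (PA28 and PA200) open the gate without recognising ubiquitin. Cells exposed to interferon exchange the catalytic beta subunits for the inducible Psmb8, Psmb9 and Psmb10, which form the immunoproteasome. The name rule keeps Psmb10 among the members. It also takes in Psmc3ip, which shares only the prefix, encodes a meiotic recombination factor and is no subunit, which leaves 41 subunit genes.

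Of these 41 genes, 39 gave a signal well above background in 1 or both diets on each array and were tested, among 18198 genes tested in all. They comprised 15 of 17 genes of the 20S core, all 20 genes grouped with the 19S particle and all 4 activators. The missing pair was Psma8, the testis form of an alpha subunit, and Psmb11, the thymus form of a catalytic beta subunit. Neither was well above background on either array in either diet. The brightest probes of all 39 tested subunits were well above background in both diets on both arrays, and no member spot was saturated or marked as an outlier.

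The readout of each gene rests on 1 or a few oligonucleotides of 60 bases. The probes of the 3 constitutive catalytic subunits, on which the comparison with the inducible forms turns, and of Psma1, which had the highest ratio, are printed 5′ to 3′ as in the scanner files. In build rn4 the files place the Psmb5 probe at chr15:32690134-32690193, the Psmb6 probe at chr10:57371368-57371427, the Psmb7 probe at chr3:18413231-18433105 and the Psma1 probe at chr1:172238058-172239529. The last 2 intervals are longer than the probe, so those probes span a gap in the genome. Whether a probe lies in an exon's coding part was not annotated here. Each of the 4 has at least 1 reading frame without a stop codon.
Psmb5: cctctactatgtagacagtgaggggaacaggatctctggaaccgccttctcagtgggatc
Psmb6: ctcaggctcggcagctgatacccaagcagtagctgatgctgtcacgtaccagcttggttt
Psmb7: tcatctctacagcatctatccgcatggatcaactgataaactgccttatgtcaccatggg
Psma1: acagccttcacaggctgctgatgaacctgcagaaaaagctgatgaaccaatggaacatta

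No gene of the rule passed the test in either direction, whereas Psmb9, which the rule leaves out, did and is described below. With limma and Benjamini-Hochberg adjustment over all genes at 0.05, 0 of the 40 tested genes of the rule (39 subunits and Psmc3ip) were higher and 0 were lower, whereas 795 genes (4.37%) were higher and 773 (4.25%) lower among all 18198. At an unadjusted limma p under 0.05, 1 of 39 subunits passed (Psma1), against 17.6% of all genes. No subunit was called under any of the alternative processings either, with 0 or 1 at an unadjusted p under 0.05 in each. With the authors' deposited log ratio and with median centring, however, limma called no gene at all. The lack of calls in those settings therefore says nothing particular about the subunits. The smallest limma adjusted p of a subunit was 0.279.

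The mean ratios were small. They ran from -0.20 for Psmc6 to 0.20 for Psma1, so that the largest difference in either direction was 1.15-fold. The median over the 39 subunits was -0.029, with -0.055 on array 1 and -0.016 on array 2, beside 0.00025 for all genes tested. Means were positive for 15 subunits and negative for 24, beside 9115 positive and 9083 negative among all genes tested. With median centring in place of loess, however, 38 of the 39 subunits were positive. All 39 means lay within 1.2-fold, as did 88.9% of all genes. On both arrays separately all 39 lay within 1.3-fold, as did 89.3% of all genes. The SD across the subunits' means was 0.092, against 0.198 across all genes. The subunits' probes were also brighter than most, with a median log2 average intensity of 12.6 against 8.40 over all genes tested, and the part of brightness in the narrower spread was not tested.

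**Figure D1:**
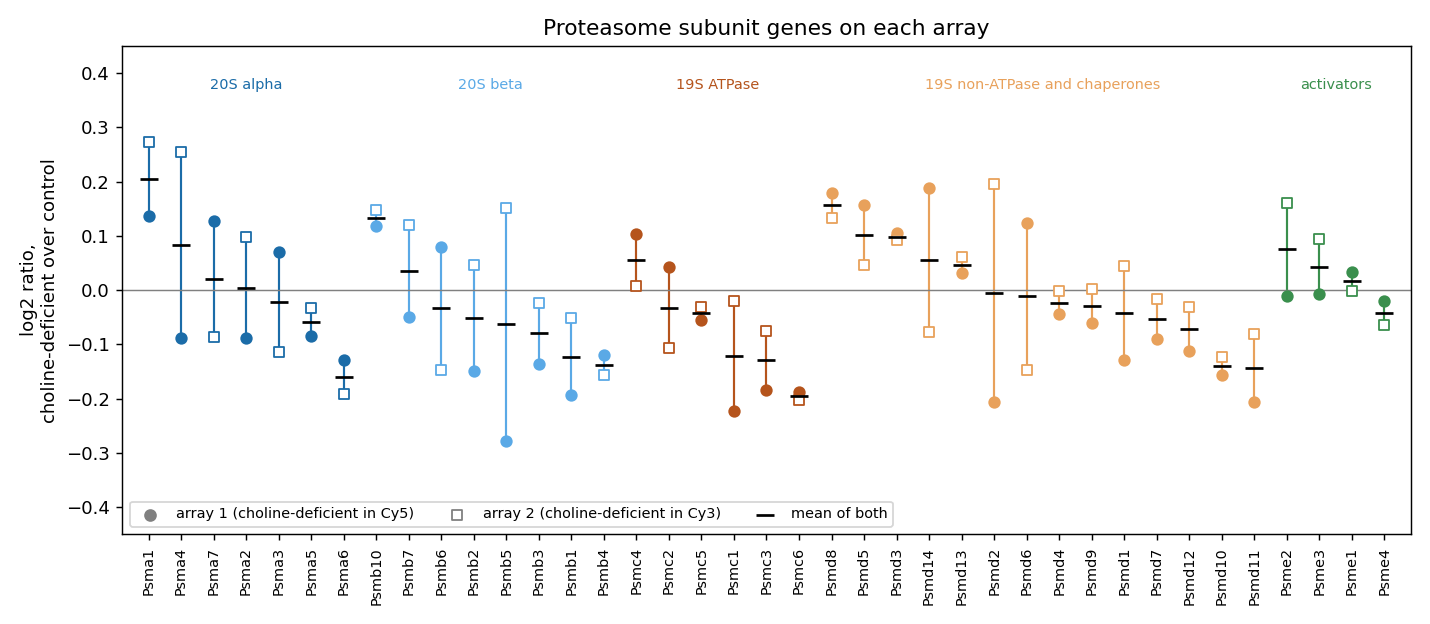
Log2 ratio of choline-deficient over control for the 39 tested subunit genes, grouped by role and ordered by mean; filled circles are array 1, open squares array 2 and black bars their mean. Values lie between -0.28 (Psmb5, array 1) and 0.27 (Psma1, array 2), and for many genes the arrays lie on opposite sides of 0.

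The arrays ordered the subunits differently. Only 22 of 39 had the same sign on both (56.4%), the same share as among all genes tested (56.4%). Of these 22, 7 were above 0 and 15 below 0 on both arrays, beside 5342 above and 4916 below among the 18198 genes tested. Across the 39 genes the arrays' ratios had a Pearson r of 0.10 and a Spearman rho of 0.11, and across all tested genes 0.55 and 0.30. These correlations describe genes that share the same 2 arrays and dyes, and genes are not replicates. A correlation also depends on the spread of the values, and the SD across means was 0.092 for the subunits and 0.198 for all genes. The part of that narrower spread in the lower correlation was not tested. The median SD between arrays was 0.079 for a subunit and 0.097 over all genes. The SD of 0.092 across the subunits is taken over means of 2 arrays, so it cannot be set directly against these SDs between single arrays.

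**Figure D2:**
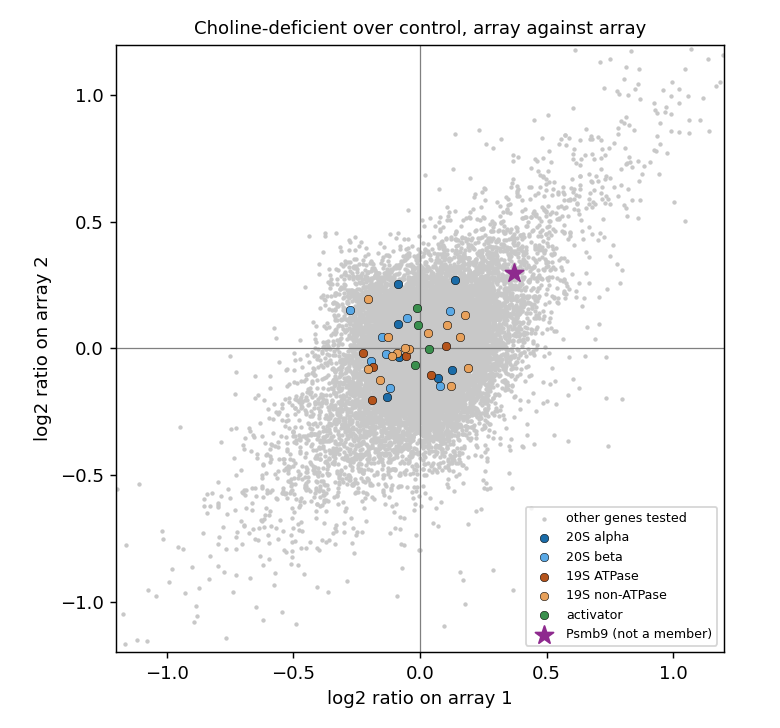
Log2 ratio on array 1 (x) against array 2 (y), choline-deficient over control, for the 39 subunit genes (coloured by role) and the other tested genes (grey; 52 genes beyond 1.2 on either axis are not drawn). The subunits lie close to the origin without a diagonal trend, and the star marks Psmb9, an inducible subunit that is not a member, at 0.37 and 0.30.

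A p above the threshold does not show equal expression, so the 95% limma intervals bound what the arrays allow. The interval of a typical gene reached 0.20 to each side on the log2 scale. For 37 of 39 subunits it stayed within 1.3-fold in both directions, as it did for 78.1% of all genes. The 2 exceptions were Psma1 and Psmc6, and all 39 intervals stayed within 1.5-fold, as did 94.8% of all genes. These limits lean on a variance shared across genes (with 63.5 prior degrees of freedom beside 1 of the gene itself), and they cover no spread between rats beyond what the 2 arrays hold.

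**Figure D3:**
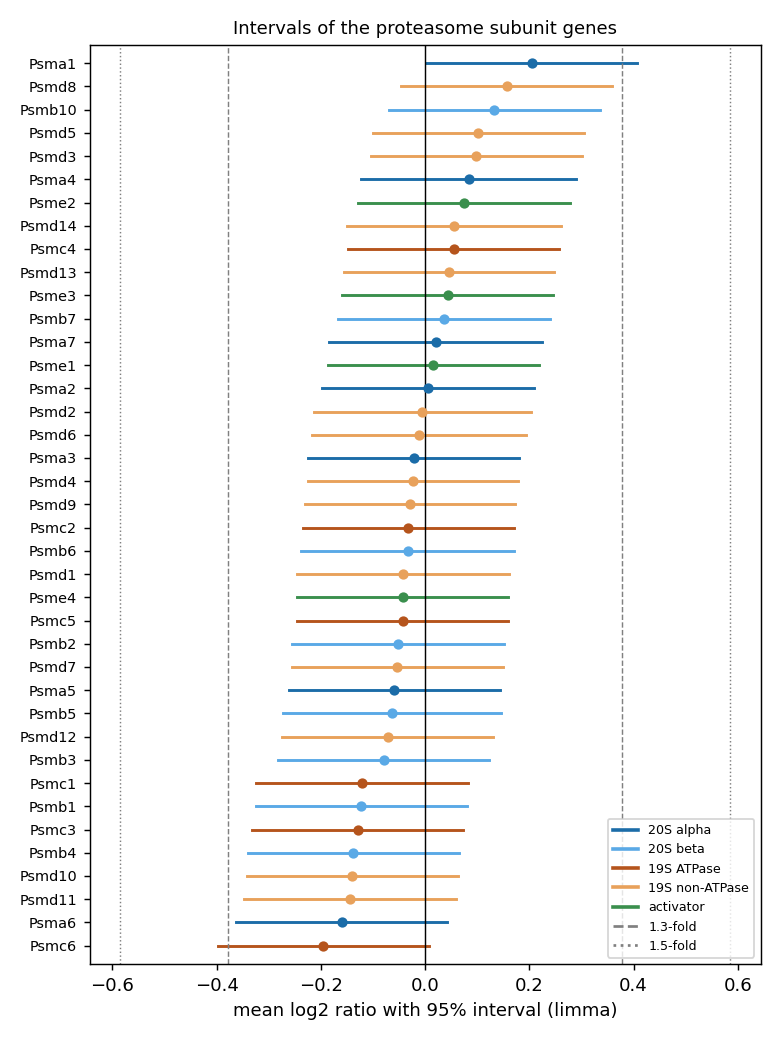
Mean log2 ratio of each subunit gene (point, n = 2 arrays) with its 95% interval from limma (line), coloured by role; dashed and dotted lines mark 1.3-fold and 1.5-fold in each direction. Only Psma1 and Psmc6 reach past 1.3-fold, and only the interval of Psma1 leaves out 0.

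The alpha genes of the 20S core, which build the gated outer rings, had a median of 0.0048 over the arrays' means, but of -0.084 on array 1 and -0.034 on array 2. Psma1 was the highest, at 0.14 on array 1 and 0.27 on array 2. Its mean was 0.20 ± 0.10 (SD, n = 2), with a 95% interval from 0.0018 to 0.41 and an limma adjusted p of 0.279. Before normalization its background-subtracted signal was 12708 in Cy5 for choline-deficient and 4609 in Cy3 for control RNA on array 1, and 6441 in Cy3 and 11651 in Cy5 on array 2. Cy5 was the brighter dye in both orientations.

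Psma6 was the lowest alpha gene, at -0.13 and -0.19 (mean -0.16 ± 0.04, limma adjusted p = 0.483). It was below 0 on both arrays, but its other probe was at 0.03 and -0.27 (mean -0.12). Psma3 had probes of opposite sign. Its brightest probe was at 0.07 and -0.11 (mean -0.02) and the other at 0.13 and 0.09 (mean 0.11), so no direction can be given for it. The other probe was dimmer, with a background-subtracted signal of 1878 against 15998 for choline-deficient RNA on array 1. It is annotated to no Ensembl transcript, and whether it detects Psma3 RNA was not tested.

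The beta genes had a median of -0.057, with -0.13 on array 1 and 0.011 on array 2, so its sign depended on the array. Among them the 3 constitutive catalytic subunits stayed near 0 on average and split between the arrays. Psmb5, the chymotrypsin-like subunit, was at -0.28 on array 1 and 0.15 on array 2. Its mean of -0.06 ± 0.30 (limma adjusted p = 0.897) carried the largest SD of any subunit. Psmb6, the caspase-like subunit, was at 0.08 and -0.15 (mean -0.03 ± 0.16). Psmb7, the trypsin-like subunit, was at -0.05 and 0.12 (mean 0.04 ± 0.12). None of the 3 had the same sign on both arrays.

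The lowest beta gene was Psmb4, a structural subunit, at -0.12 and -0.16 (mean -0.14 ± 0.03, limma adjusted p = 0.593). The highest was the inducible Psmb10, at 0.12 and 0.15 (mean 0.13 ± 0.02, limma adjusted p = 0.618). Both pairs of values were close together, but neither gene passed the test.

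Of the inducible subunits that the rule leaves out, Psmb9 rose. It was at 0.37 and 0.30, a mean of 0.33 ± 0.05 or 1.26-fold (limma adjusted p = 0.0224). It passed in 3 of 7 alternative processings, with limma adjusted p from 0.00797 to 1, and in each its ratio was above 0. Those 7 include the deposited log ratio and median centring, with which limma called no gene at all. Psmb8 was at 0.09 and -0.02 (mean 0.04 ± 0.08, limma adjusted p = 0.951). Psmb8 and Psmb9 are near neighbours in the RefSeq annotation, with 1 protein-coding gene between them.

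Set against the constitutive subunit that each replaces, 3 pairs were compared within the arrays. Psmb9 minus Psmb6 was 0.29 on array 1 and 0.44 on array 2 (mean 0.37 ± 0.11). Psmb10 minus Psmb7 was 0.17 and 0.03 (mean 0.10 ± 0.10). Psmb8 minus Psmb5 was 0.37 and -0.17 (mean 0.10 ± 0.38), so its sign depended on the array. With 2 arrays an exact test cannot go below p = 0.5, so these differences of log2 ratios are given without one.

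**Figure D4:**
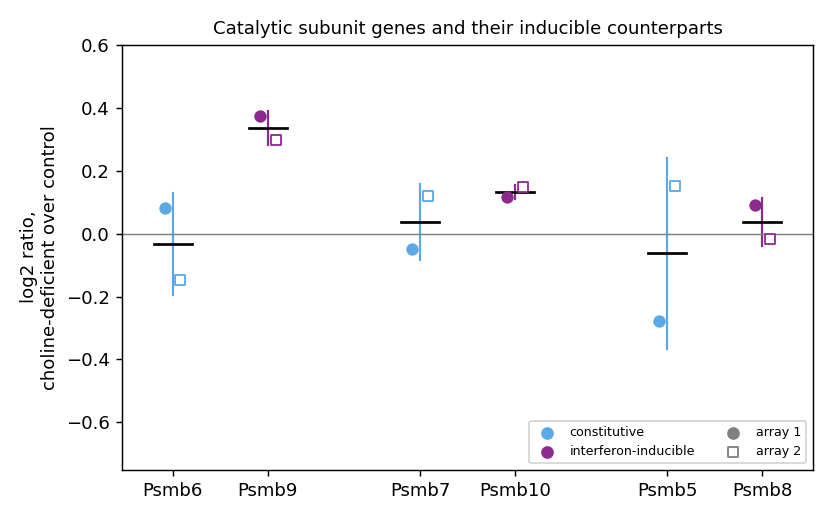
Log2 ratio of choline-deficient over control for the 3 constitutive catalytic genes (blue) beside their inducible counterparts (purple); circles are array 1, open squares array 2, black bars the mean and thin lines the SD over the 2 arrays. Psmb9 and Psmb10 are above 0 on both arrays, whereas the points of Psmb8 and of each blue gene straddle 0.

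The 19S genes had a median of -0.030, with -0.058 on array 1 and -0.018 on array 2. The 6 ATPases (Psmc1 to Psmc6), which unfold the substrate, had a median of -0.082, with -0.12 on array 1 and -0.053 on array 2. Of these, 5 of 6 had negative means and 4 were below 0 on both arrays, but with median centring only Psmc6 stayed negative. Psmc6 was at -0.19 and -0.20, so both arrays gave nearly the same value. Its mean was -0.20 ± 0.01 with a 95% interval from -0.40 to 0.0068 (limma adjusted p = 0.315), and a dimmer probe of the gene was at -0.05 and -0.16 (mean -0.11). Psmc4, the highest ATPase, was at 0.10 and 0.0077 (mean 0.06 ± 0.07), but its dimmer probe was at -0.07 and 0.10 (mean 0.01).

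The 14 remaining 19S genes had a median of -0.017, or -0.052 on array 1 but 0.00058 on array 2, and 9 of them had negative means. Psmd8, a lid subunit, was the highest at 0.18 and 0.13 (mean 0.16 ± 0.03, limma adjusted p = 0.501). Psmd11, another lid subunit, was the lowest at -0.21 and -0.08 (mean -0.14 ± 0.09, limma adjusted p = 0.568). Psmd2, one of the large base scaffolds, was at -0.21 on array 1 and 0.20 on array 2 (mean -0.0050 ± 0.28). Its other probe was at -0.05 and 0.29 (mean 0.12), so Psmd2 too has no settled direction.

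Several 19S genes were picked for their roles after their values were known. Psmd14, the deubiquitinase of the lid, was at 0.19 and -0.08 (mean 0.06 ± 0.19). Psmd4, a ubiquitin receptor, was at -0.04 and -0.0013 (mean -0.02 ± 0.03). Psmd5, Psmd9 and Psmd10 are chaperones that help build the base and are not part of the finished particle. Their means were 0.10 ± 0.08, -0.03 ± 0.04 and -0.14 ± 0.02, and without these 3 the median of the other 11 non-ATPase genes was -0.011.

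The 4 activators ranged from -0.04 to 0.07, with a median of 0.030 that was -0.0089 on array 1 and 0.046 on array 2. Psme1 and Psme2 encode the interferon-responsive PA28 alpha and beta chains and lie with 1 protein-coding gene between them in the RefSeq annotation. Psme1 was at 0.03 and -0.0023 (mean 0.02 ± 0.03), and Psme2 at -0.01 and 0.16 (mean 0.07 ± 0.12, limma adjusted p = 0.864). Psme4, which encodes PA200, was the lowest at -0.02 and -0.07 (mean -0.04 ± 0.03). By the brightest probes, Psme4 was the only activator with the same sign on both arrays, but its other kept probe was at -0.09 and 0.02.

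Between the assemblies, the medians differed by little. The 20S core minus 19S difference was -0.030 on array 1 and -0.0054 on array 2 (mean -0.018 ± 0.017). The activators exceeded the 20S core by 0.078 and 0.069 (mean 0.074 ± 0.006) and the 19S genes by 0.049 and 0.064 (mean 0.056 ± 0.011). Both activator differences had the same sign on each array, over only 4 activator genes. An exact test on 2 arrays cannot go below p = 0.5, so none was made.

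Of 8 subunit genes with more than 1 kept probe, 2 had probes of opposite sign (Psma3 and Psmd2), and the largest gap between probes of a gene was 0.13. By name, the RefSeq table of GRCr8 holds 44 pseudogenes and 5 like genes of 18 subunit genes, among them 7 pseudogenes and 3 like genes of Psmb3 and 5 pseudogenes of Psma6. A probe may detect such copies too, and their part in the ratios was not tested. The brightest probes of Psmb6 and Psma3 are each annotated to 2 Ensembl transcripts, and the only probes of Psma2, Psmd9 and Psmd11 to none.

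Transcription of proteasome genes is known to be raised together by Nfe2l1 (NRF1), which acts through antioxidant response elements, when the proteasome is impaired. The promoters were therefore searched on both strands for the core of that element, TGACNNNGC, in RefSeq sequences of GRCr8 from 250 bases before to 50 after the start, which were matched for 36 of 41 subunit genes. Of these, 8 held it (22.2%), against 12.1% of all 33469 promoters of the same length. They were Psma3, Psmb2, Psmb5, Psmb6, Psmd1, Psmd3, Psmd9 and Psme4. The NF-Y box CCAAT was in 17 (47.2% against 37.5%) and the heat shock core GAANNTTC in 2 (5.6% against 8.6%). The median GC content was 56.0% in the subunit promoters and 51.7% in all promoters, and its part in these shares was not tested. A match is a string of letters and was not shown to be a bound site. The promoters of 2 catalytic genes are printed with the core in capitals, Psmb5 from chr15:32047330-32047629 on the minus strand and Psmb6 from chr10:55737638-55737937 on the plus strand.
Psmb5 promoter: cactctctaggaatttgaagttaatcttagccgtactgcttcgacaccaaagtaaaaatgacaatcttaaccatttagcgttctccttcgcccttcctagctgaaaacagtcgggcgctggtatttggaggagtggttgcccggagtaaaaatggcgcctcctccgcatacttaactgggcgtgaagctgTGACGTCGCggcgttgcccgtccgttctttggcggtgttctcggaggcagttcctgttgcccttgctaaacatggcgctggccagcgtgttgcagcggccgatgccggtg
Psmb6 promoter: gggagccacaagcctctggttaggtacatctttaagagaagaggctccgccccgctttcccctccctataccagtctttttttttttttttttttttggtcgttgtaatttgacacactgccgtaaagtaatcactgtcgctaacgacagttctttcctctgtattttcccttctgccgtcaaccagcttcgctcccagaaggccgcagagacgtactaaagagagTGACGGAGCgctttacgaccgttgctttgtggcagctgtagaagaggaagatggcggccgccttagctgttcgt

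The core begins 60 bases before the start in Psmb5 and 24 bases before it in Psmb6. The 8 genes with the core had a median ratio of -0.038 (range -0.06 to 0.10), and the 27 tested genes with a matched promoter but no core had -0.023 (range -0.20 to 0.20). Nfe2l1 itself was at 0.05 and -0.14 (mean -0.04 ± 0.13, limma adjusted p = 0.936).

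Around the complex, 39 gene names of assembly, ubiquitin delivery, regulation and antigen processing were listed, of which 35 were on the array and tested. Among the names, Shfm1 and Sem1 stand for the same gene, as do Ufd1l and Ufd1. With limma, 2 were higher (Psmb9 and Ubd) and 2 lower (Psmg1 and Ufd1l), and 6 had an unadjusted p under 0.05. Among all genes tested 4.37% were higher, 4.25% lower and 17.6% under that unadjusted p, so these counts of 35 are near the background. Their median was 0.040. Without the 5 genes of the immunoproteasome and antigen processing, 0 of 30 were higher, with 4 at an unadjusted limma p under 0.05 in either direction, and 2 were lower. The background shares were 4.37% higher, 4.25% lower and 17.6% under the unadjusted p.

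Psmg1, a chaperone that pairs alpha subunits during assembly, fell. It was at -0.47 and -0.18 (mean -0.32 ± 0.20, limma adjusted p = 0.0328), and it passed in 2 of 7 alternative processings, with limma adjusted p from 0.0288 to 1. Ufd1l, a cofactor of the segregase Vcp, fell too, at -0.30 and -0.32 (mean -0.31 ± 0.01, limma adjusted p = 0.0426), and passed in 3 of 7, with limma adjusted p from 0.014 to 1. Ubd, a ubiquitin-like modifier that targets proteins to the proteasome, rose by 1.55 ± 0.12 (1.47 and 1.64, limma adjusted p = 7.5e-20) and passed in 5 of 7 (limma adjusted p up to 1). The alternatives in which Ubd did not pass were the deposited log ratio and median centring, where limma called no gene at all. Pomp, which completes the maturation of the beta ring, was at -0.22 and 0.04 (mean -0.09 ± 0.18, limma adjusted p = 0.825).

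The medians of the subunits depended on how the dye bias was removed. No subunit was called in any setting, but with the deposited log ratio or median centring no gene at all was called. With loess the subunits' medians on the 2 arrays were -0.055 and -0.016. The authors' deposited log ratio gave -0.083 and -0.0037. Median centring alone gave 1.16 and -0.84 for the subunits, beside 0.65 and -0.41 for all genes tested. The mean of the arrays then had a median of 0.16 for the subunits and 0.079 for all genes, and limma called 0 of the 18198 genes (19 at an unadjusted p under 0.05).

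**Figure D5:**
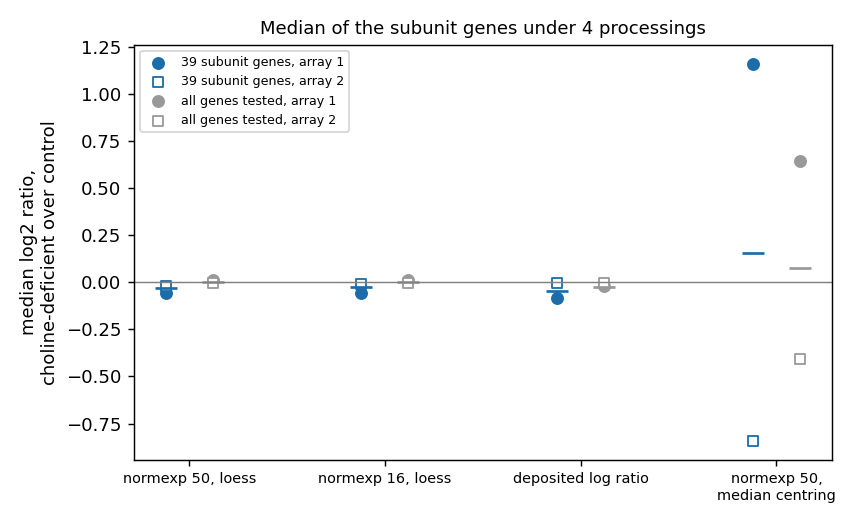
Median log2 ratio of choline-deficient over control over the 39 subunit genes (blue) and all 18198 tested genes (grey) under 4 processings; circles are array 1, open squares array 2 and dashes the median of the arrays' mean. Without an intensity-dependent dye correction the subunits stand at 1.16 and -0.84 on the 2 arrays, and with one they stay within 0.1 of 0.

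Psmc3ip, the member that is no subunit, was at 0.20 and 0.39 (mean 0.29 ± 0.14, limma adjusted p = 0.0616). Its unadjusted limma p was 0.00568, and it passed the adjusted threshold in 1 of 7 alternative processings, the limma fit with an intensity trend (adjusted p = 0.0194, range over alternatives 0.0194 to 1).

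As a check of the tissue, all 7 hepatocyte markers were well above background in control RNA on both arrays. With limma 1 of them was higher and 2 were lower, and 4 had an unadjusted p under 0.05. The arrays stood apart on this list, since its median was 0.22 on array 1 but -0.48 on array 2, and Tf (0.37 and -0.96) and Serpina1 (0.22 and -0.64) changed sign between them. Of the other markers, 2 of 6 macrophage genes were higher (Marco by 0.91 ± 0.13 and Lyz2 by 0.69 ± 0.24), while Emr1 (-0.09) and Cd163 (-0.06) had means below 0 and were not called. Of 4 stellate genes 2 were higher (Vim and Dcn), and Lrat was at -0.10 and not called. A further 1 of 3 endothelial and 1 of 4 lymphoid genes were lower, and 0 of 3 cholangiocyte genes were called, 1 of these with an unadjusted limma p under 0.05. Over all 27 markers tested, 5 were higher and 4 lower, beside 4.37% and 4.25% of all genes, and 13 had an unadjusted limma p under 0.05, beside 17.6%. Fewer cells of a type and less RNA per cell cannot be told apart in whole liver, and the part of these markers in the subunits' ratios was not tested. Of the 43379 gene spots of an array, the share above background was 53.5% to 54.2% for Cy3 and 62.9% to 63.2% for Cy5.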

How the data were processed

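Liver RNA was measured on 2 two-colour Agilent arrays. Per the submitters' processing notes, images were read with Agilent Feature Extraction 9.5. The deposited scanner files hold intensity values of spot and local background for each dye, and the authors' processed ratio as a log10 value (Cy5 over Cy3), used as an alternative. The series value table was not used here.

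In R 4.3.3 with limma 3.58.1, mean signals were corrected by normexp on median background (offset 50, which shrinks the ratios of dim spots). Loess, fitted per array without weight on control spots, removed the dye bias, and outlier spots were left out. The authors' probe names gave the genes. A probe was kept if 1 diet or both gave signals well above background on each array (22383 probes), and the brightest stood for its gene. Array 2 was turned, and each gene was tested against 0 with lmFit and eBayes, two-sided, with Benjamini-Hochberg adjustment over 18198 genes at 0.05. The procedure was also run on simulated data with deviations shuffled across genes. Such data carry no dye error tied to a particular gene, and the run is not used as support here. Precision within an array was a median SD of 0.061 and 0.052 among spots of 171 repeated probes, and 2 arrays limit it further.

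The members, lists and alternatives were chosen with earlier results of these data known. Genes named are those past the threshold, the highest and lowest of each role, Psmb5, Psmb6, Psmb7, Psmb10, Psme1, Psme2, those with probes of opposite sign, those not tested, and of the pathway list those past the threshold with Psmb8, Pomp and Nfe2l1. Psmd4, Psmd14, Psmd5, Psmd9, Psmd10 and Psmc3ip were added after their values were seen. By RefSeq accession, 49 of 51 member probes matched GRCr8 (names only), with the same symbol in all 49. Promoters of Psma7, Psmb11, Psmd6, Psmd12 and Psmd14 were unmatched. Alternatives were offset 16, the deposited log ratio, median centring, no filter on dim probes, the mean of kept probes, an intensity trend, outlier spots kept, and each array alone. Figures were drawn with matplotlib 3.10.9.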

Additional observations from a re-analysis of the deposited data

How the results depend on the processing

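No subunit was called under any of the 7 alternatives that give a test. The count of genes of the rule called higher became 1 with an intensity trend, and that gene was Psmc3ip, which is no subunit. With median centring the medians became 0.16 (20S core), 0.15 (19S) and 0.21 (activators), and 23 of 39 subunits changed sign. Among the genes named by the rule, pathway genes included, the sign changed for Nfe2l1 (0.12), Pomp (0.077), Psma3 (0.16), Psma6 (0.0063), Psmb4 (0.030), Psmb5 (0.11), Psmb6 (0.16), Psmd11 (0.047), Psmd2 (0.17) and Psme4 (0.14). The sign also changed for Psmd2 with offset 16 (0.0067), for Psmb7 (-0.0055), Psmd2 (0.022) and Psme1 (-0.0036) with the deposited log ratio (4 of 39 subunits in all), and for Psma3 (0.043) and Psmd2 (0.058) with the mean of kept probes. On a single array the 20S core median ran from -0.087 (without replicate 2) to -0.023 (without replicate 1), and that of the activators from -0.0089 to 0.046. One array leaves no residual degree of freedom, so it gives values without a test. Over all genes, limma called 631 higher and 570 lower with offset 16, 618 and 605 of 33706 with no filter on dim probes, 967 and 866 with an intensity trend, and 0 with the deposited log ratio (2120 at an unadjusted p under 0.05) or with median centring (19). Psma1 and Psmc6 remained the highest and lowest subunits under all 7, with adjusted limma p from 0.241 to 1 and 0.317 to 1. No paired analysis was possible because the replicate number marks the array and a block for it would leave no degree of freedom. The ratio within each array, tested against 0, already pairs the diets.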
